A study of Homo sapiens with 2 samples.

Results

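The genes of the proteasome were described in THP-1, a human cell line from an acute monocytic leukaemia, grown as 2 cultures in RPMI-1640 with 10% serum. One culture was exposed for 48 h to 2 µM of an agent labelled OPA1, and the other received its solvent DMSO for the same time; the title of the series places the agent in work on opioid receptor signalling. OPA1 is a treatment name here and not the mitochondrial gene of that symbol. Each treatment was a single library. No replicate exists, no test was possible, and a difference between the treatments cannot be told apart from a difference between 2 cultures or 2 library preparations. Members were the genes with a symbol made of PSM, a letter from A to G and a number, with 1 such gene left out by the rule. This gave 46 of 11697 listed genes, of which PSMC3IP, a recombination factor named for its binding to a proteasome ATPase, is no proteasome gene and stood at 16.6 FPKM with OPA1 and 16.7 FPKM with DMSO. The other 45 all passed the minimum mean of 1 FPKM (fragments per kilobase of transcript per 1000000 fragments), as did 10601 genes in all. The lowest of them, PSMD9, stood at 5.96 FPKM with OPA1 and 5.03 FPKM with DMSO, well inside that minimum. PSMA8 and PSMB11, subunits known from testis and thymus, were not among the listed genes.

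The proteasome is the protease complex that degrades ubiquitin-tagged proteins. Its 20S core is a barrel with outer rings of alpha subunits, which gate entry, and inner rings of beta subunits, some of which cut peptides. The 19S cap binds ubiquitin, removes it and unfolds the substrate with a ring of ATPases. Interferon induces alternative beta subunits and the PSME1 and PSME2 activator, which change the peptides made for MHC class I; monocytic cells are known to hold these forms without added interferon.

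The libraries resembled monocytic leukaemia cells by their markers. Of 9 markers of that lineage 8 were listed, among them AZU1 at 845 FPKM with OPA1 and 702 FPKM with DMSO, while CD14 was not listed. The lowest of the 8 was MPO, at 5.43 FPKM with OPA1 and 5.96 FPKM with DMSO. Of 13 markers of T and NK, B, erythroid, epithelial and fibroblast cells only NKG7 reached a mean of 1 FPKM. It stood at 27.9 FPKM with OPA1 and 26.9 FPKM with DMSO, above the monocytic markers CD33, CSF1R and MPO. Mitochondrially encoded genes held 12.8% of the FPKM sum in each library.

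The upstream sequences of the 4 interferon-inducible members are shown because these genes are set against the constitutive ones below, together with that of PSMB3, a constitutive beta subunit, for comparison. Each runs 5′ to 3′ over 280 bases up to the first bases of the gene, from RefSeq on GRCh38.p14, which is another build than that of the expression table. Where a gene has several windows, the one nearest to the start of its most abundant transcript in GENCODE was taken, by transcript ID. Capitals mark 3 motifs searched on both strands: a pair of GAAA runs 2 bases apart, the core of the interferon-stimulated response element, TGACNNNGC, the antioxidant response element through which NFE2L1 is known to drive proteasome genes, and CCAAT. The windows lie at chr6:32844018-32844297 (minus strand), chr16:67936821-67937100 (minus), chr14:24135944-24136223 (plus), chr14:24146581-24146860 (minus) and chr17:38752491-38752770 (plus).
PSMB8: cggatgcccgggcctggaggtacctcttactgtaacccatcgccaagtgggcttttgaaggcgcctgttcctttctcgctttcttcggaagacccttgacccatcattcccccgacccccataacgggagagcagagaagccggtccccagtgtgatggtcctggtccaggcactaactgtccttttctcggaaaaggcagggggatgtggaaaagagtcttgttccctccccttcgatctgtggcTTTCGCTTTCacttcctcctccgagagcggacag
PSMB10: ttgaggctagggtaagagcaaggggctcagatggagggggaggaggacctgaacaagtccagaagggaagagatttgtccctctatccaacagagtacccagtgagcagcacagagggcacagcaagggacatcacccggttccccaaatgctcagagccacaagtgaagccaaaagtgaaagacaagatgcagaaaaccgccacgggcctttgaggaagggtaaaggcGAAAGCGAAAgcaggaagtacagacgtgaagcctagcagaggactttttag
PSME1: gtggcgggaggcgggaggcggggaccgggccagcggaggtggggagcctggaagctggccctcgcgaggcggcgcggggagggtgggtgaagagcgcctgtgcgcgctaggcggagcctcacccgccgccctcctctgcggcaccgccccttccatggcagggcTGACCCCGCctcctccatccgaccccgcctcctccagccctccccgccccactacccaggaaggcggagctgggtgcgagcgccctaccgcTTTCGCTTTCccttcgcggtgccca
PSME2: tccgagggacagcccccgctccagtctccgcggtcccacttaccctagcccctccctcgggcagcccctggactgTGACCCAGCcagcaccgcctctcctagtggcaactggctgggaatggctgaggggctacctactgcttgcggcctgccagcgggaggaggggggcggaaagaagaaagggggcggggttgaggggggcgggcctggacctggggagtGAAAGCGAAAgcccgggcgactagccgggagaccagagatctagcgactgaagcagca
PSMB3: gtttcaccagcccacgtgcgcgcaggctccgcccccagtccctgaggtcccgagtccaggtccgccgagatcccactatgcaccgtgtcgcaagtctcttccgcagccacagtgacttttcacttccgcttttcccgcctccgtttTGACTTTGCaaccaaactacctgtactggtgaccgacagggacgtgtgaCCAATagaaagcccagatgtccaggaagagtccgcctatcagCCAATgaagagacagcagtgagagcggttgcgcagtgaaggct

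PSMB8, PSMB10, PSME1 and PSME2 each held the letters GAAAGCGAAA near the start of the gene, from base 247, 230, 256 and 223 of the window, with PSMB8 and PSME1 holding them on the opposite strand. The window of PSMB8 belongs to the start of PSMB8-202, which held 94.8% of the gene's FPKM with OPA1 and 98.1% with DMSO. The window of its minor start, 632 bases further upstream, held none of the 3 motifs. The window of PSME2 lies 611 bases from the start that GENCODE gives its main transcript. The pair of GAAA runs was present in all 4 of these windows, in 2 of 35 constitutive members with a window (PSMB4 and PSMG4), in 2.97% of the 8428 windows of kept genes and in 3.57% of all 35116 windows of 300 bases. A window of PSMA4 that was not taken, 409 bases from the start of its main transcript, also held the pair. The exact letters GAAAGCGAAA, a form looked up after the matches were seen, stood in 1 constitutive member, PSMG4, in 0.214% of the windows of kept genes and in 0.0997% of all windows. TGACNNNGC was present in 12 of the 39 members with a window, or 30.8%, against 15.6% of the windows of kept genes and 13.3% of all windows. It was also present in windows of PSMC5 and PSMG2 that were not taken, so these member counts depend on the choice of window. CCAAT was present in 18 of these 39 members, all of them constitutive, or 46.2%, against 37.5% of the windows of kept genes and 34.6% of all windows. These are matches of letters and not measured binding, and no overlap between different motifs was seen in the windows shown.

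Proteasome genes stood at nearly the same level in both libraries. Their FPKM summed to 2988 with OPA1 and 2945 with DMSO, a ratio of 1.01, and they held 0.901% of the library's FPKM with OPA1 and 0.906% with DMSO. The log2 ratio of OPA1 over DMSO, taken after adding 1 FPKM to each value, was above 0 in 23 members and below 0 in 22. Its median was 0.011 over the members and -0.0002 over all kept genes. The middle 50% of the members lay between -0.08 and 0.11, and the middle 50% of all kept genes between -0.15 and 0.16. None of the 45 members differed by 2-fold, against 3.96% of all kept genes. In bulk RNA like this, fewer cells of a kind and less RNA per cell cannot be told apart.

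A log2 ratio of 0.32, which is 25% higher or 20% lower on this scale, was used as a smaller limit. At this limit 4 members were higher with OPA1 (PSMA6, PSMB10, PSMC4 and PSMC5) and 3 were lower (PSMC2, PSMD13 and PSME4). Among all kept genes 24% differed by as much in either direction, with 12.6% higher and 11.3% lower. The members are more abundant than most genes, and abundant genes differed less often: of the 39 members with a mean of at least 20 FPKM 12.8% passed it, and 14.9% of the 2904 genes at that level did. The member shares are thus near or below the background, and the 7 genes are given as values of these libraries. PSMB6, at -0.30, lay just inside the limit.

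**Figure D1:**
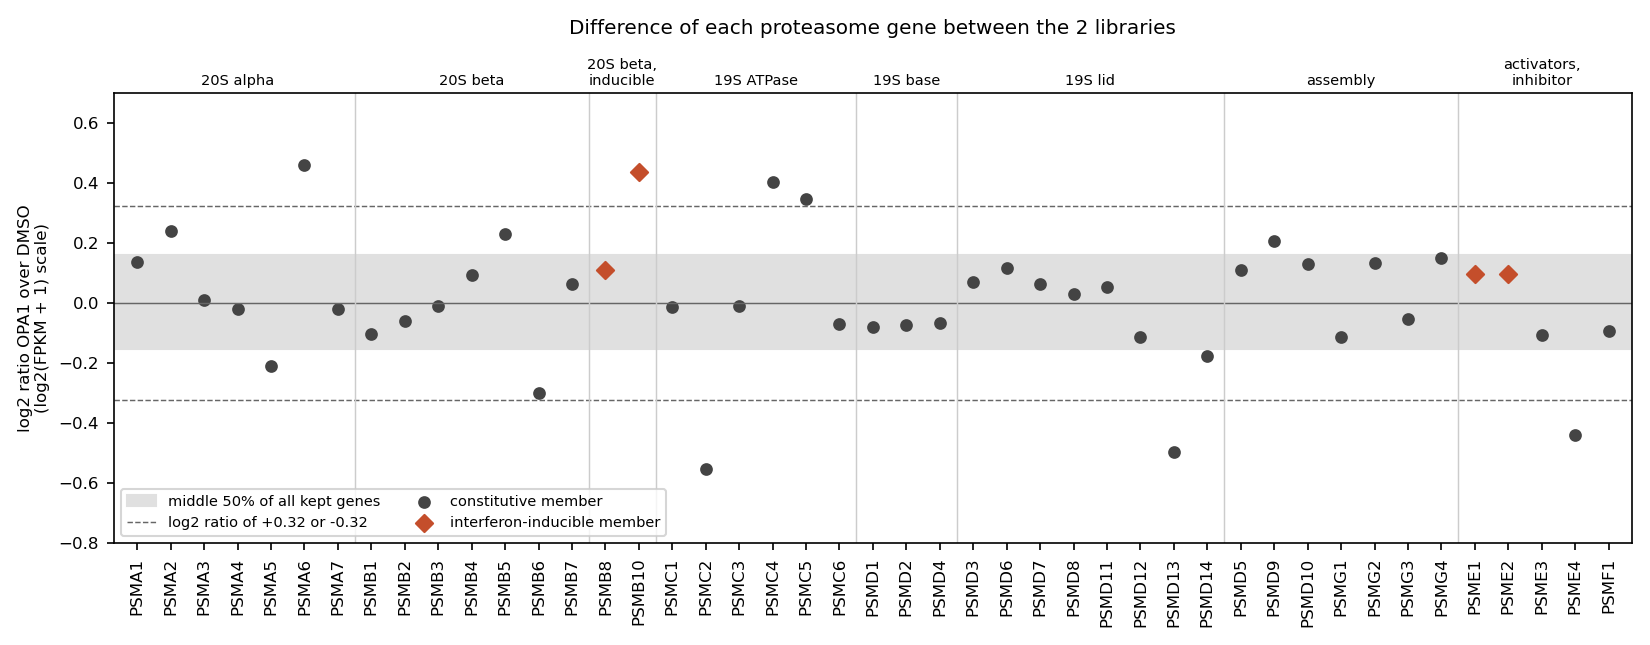
Log2 ratio of OPA1 over DMSO on the log2(FPKM + 1) scale (vertical axis) for each of the 45 proteasome genes, ordered by role, with 1 library per treatment. The grey band is the middle 50% of all kept genes (-0.15 to 0.16) and dashed lines mark a log2 ratio of 0.32 in either direction. Most members lie in the band, and the 4 interferon-inducible members (diamonds) all lie above 0 with summed transcripts.

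The alpha subunits of the core were close between libraries except PSMA6. PSMA6 stood at 152 FPKM with OPA1 and 111 FPKM with DMSO, a plain ratio of 1.38 and a log2 ratio of 0.46. Its most abundant transcript, here and throughout the one with the highest FPKM over both libraries together, was PSMA6-201, which had -0.37 alone. PSMA6-204 led with OPA1, at 79.7 FPKM beside 22.2 FPKM with DMSO. PSMA2 stood at 52.4 FPKM with OPA1 and 44.2 FPKM with DMSO, and PSMA1 at 65.3 FPKM with OPA1 and 59.3 FPKM with DMSO. The most abundant transcript of PSMA1 taken alone had a log2 ratio of -0.12. PSMA3, another alpha subunit, was level: it stood at 84.5 FPKM with OPA1 and 83.9 FPKM with DMSO. PSMA4 stood at 90.2 FPKM with OPA1 and 91.4 FPKM with DMSO. PSMA7, the most abundant alpha gene, was level at 202 FPKM with OPA1 and 205 FPKM with DMSO. PSMA5, the least abundant, stood at 24.7 FPKM with OPA1 and 28.7 FPKM with DMSO. Its log2 ratio was 0.02 with transcripts weighted by length and 0.21 for its most abundant transcript alone. The median log2 ratio of the 7 alpha genes was 0.01.

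The constitutive beta subunits, 7 genes, had log2 ratios with a median of -0.01, and none passed 0.32 in size. The non-catalytic subunits were the most abundant: PSMB4 stood at 251 FPKM with OPA1 and 235 FPKM with DMSO. PSMB1 stood at 219 FPKM with OPA1 and 236 FPKM with DMSO, and PSMB3 at 154 FPKM with OPA1 and 155 FPKM with DMSO. PSMB2, also non-catalytic, was lower in level and close between libraries, at 54.8 FPKM with OPA1 and 57.2 FPKM with DMSO. The sums of the 3 catalytic genes diverged in direction, while the most abundant transcript of each, taken alone, had a log2 ratio above 0, with PSMB6 at 0.12. PSMB5, which cuts after hydrophobic residues, stood at 25.7 FPKM with OPA1 and 21.8 FPKM with DMSO. PSMB6, which cuts after acidic residues, stood at 34.6 FPKM with OPA1 and 42.9 FPKM with DMSO. PSMB7, which cuts after basic residues, stood at 112 FPKM with OPA1 and 107 FPKM with DMSO.

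Each of the 4 interferon-inducible members was higher in the OPA1 library, by 1.07 to 1.36-fold as plain ratios, although the most abundant transcript of PSME1 taken alone had a log2 ratio of -0.075. PSMB10 (chromosome 16, 67968405 to 67970990, minus strand, hg19), which replaces PSMB7 in the immunoproteasome, stood at 55.6 FPKM with OPA1 and 40.8 FPKM with DMSO, a log2 ratio of 0.44 from its single listed transcript. PSMB8 (chromosome 6, 32808494 to 32812480), which replaces PSMB5, stood at 130 FPKM with OPA1 and 120 FPKM with DMSO, a log2 ratio of 0.11. The remaining inducible pair forms the activator ring that opens the core gate. PSME1 (chromosome 14, 24605367 to 24608176) stood at 77.5 FPKM with OPA1 and 72.5 FPKM with DMSO, and PSME2 (chromosome 14, 24612574 to 24616430) at 61.7 FPKM with OPA1 and 57.6 FPKM with DMSO. Both had a log2 ratio of 0.096. The inducible genes thus had a median log2 ratio of 0.10, and the 41 constitutive members one of -0.01, with 19 above 0 and 22 below. Above 0 lay 49.9% of all kept genes, and only PSMB10 of the 4 passed 0.32.

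Set against the subunit it replaces, PSMB10 was at 0.496 of the PSMB7 level with OPA1 and 0.380 with DMSO. PSMB8 was at 5.06 times the PSMB5 level with OPA1 and 5.53 times with DMSO. From the most abundant transcripts alone, PSMB8 was at 6.66 times the PSMB5 level with OPA1 and 6.46 times with DMSO, so the direction for this pair depends on the minor transcripts. PSME1 stood at 1.26 times the PSME2 level in each library, and from the most abundant transcripts alone at 0.963 with OPA1 and 1.08 with DMSO.

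Other genes of interferon response and class I loading, 8 on a companion list, had a median log2 ratio of 0.30, above that of the inducible proteasome genes. Of these 8 genes 7 were higher with OPA1, against 49.9% of all kept genes, and ERAP1 was lower at -0.11. Higher past 0.32 were 3 of the list (B2M, NLRC5 and IRF9), against 12.6% of all kept genes. NLRC5 is low in level, at 4.87 FPKM with OPA1 and 2.08 FPKM with DMSO, as is IRF9. That list was drawn up with higher interferon genes in these libraries already known, so it is no independent evidence of the direction. TAP1, a peptide transporter that neighbours PSMB8, stood at 14.0 FPKM with OPA1 and 11.1 FPKM with DMSO, while TAP2 on the other side was at 21.4 FPKM with OPA1 and 20.6 FPKM with DMSO. IRF1, a factor that binds the interferon-stimulated element, stood at 4.57 FPKM with OPA1 and 3.57 FPKM with DMSO. Next to PSME2 on chromosome 14 lie RNF31, at 7.98 FPKM with OPA1 and 10.1 FPKM with DMSO, and then IRF9, at 4.94 FPKM with OPA1 and 0.832 FPKM with DMSO. Neighbours thus differed from the PSME genes in both directions, as did EMC9 between PSME1 and PSME2, at 2.83 FPKM with OPA1 and 5.18 FPKM with DMSO.

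The sums of the remaining activators and of the inhibitor were below the DMSO level, but with transcripts weighted by length PSMF1 (0.25) and PSME3 (0.02) had log2 ratios above 0. PSME4, a large activator of the core known from DNA repair and sperm chromatin, stood at 9.29 FPKM with OPA1 and 12.97 FPKM with DMSO, a log2 ratio of -0.44, from its single listed transcript. PSME3, the nuclear relative of PSME1 and PSME2, stood at 53.1 FPKM with OPA1 and 57.3 FPKM with DMSO. PSMF1, a core inhibitor, stood at 9.78 FPKM with OPA1 and 10.5 FPKM with DMSO.

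**Figure D2:**
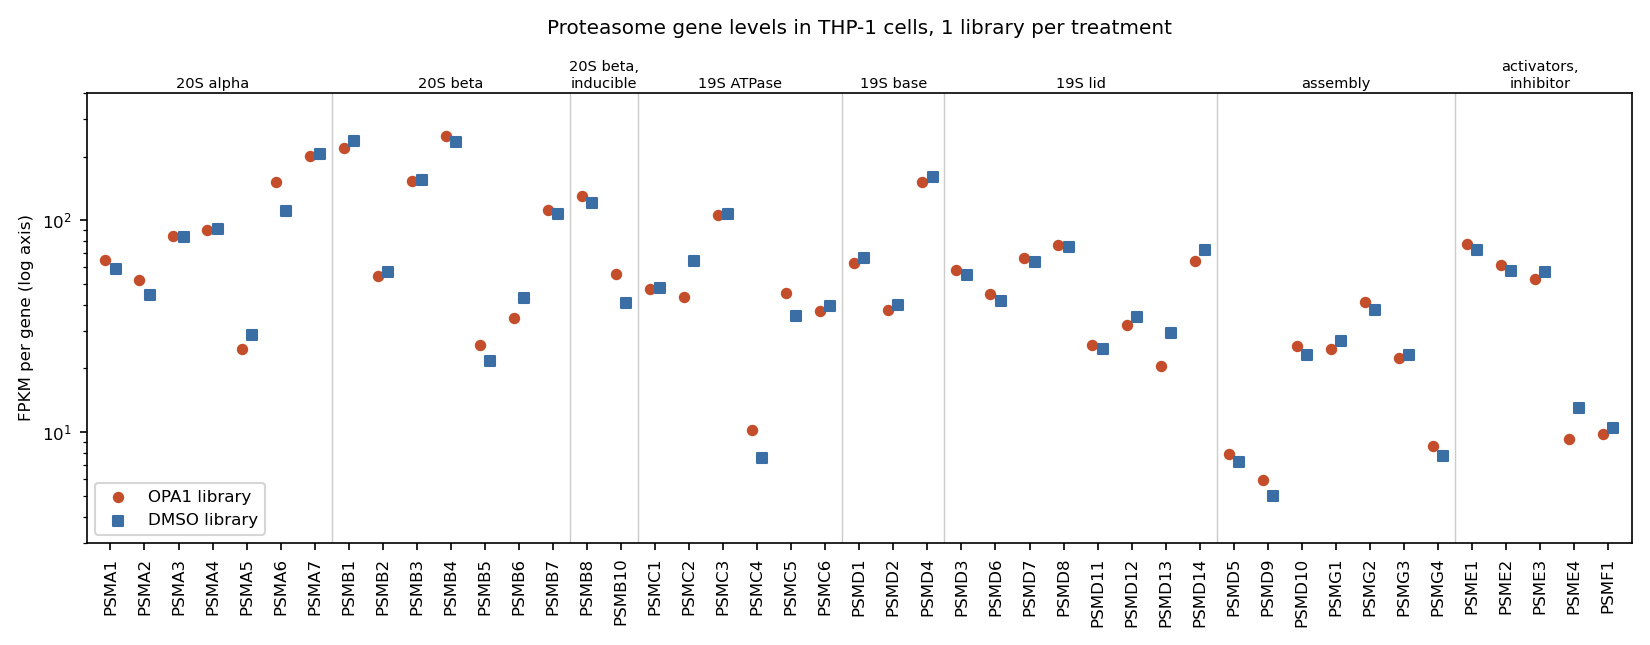
FPKM per gene (vertical log axis) of the 45 proteasome genes in the OPA1 library (circles) and the DMSO library (squares), ordered by role. Levels range from 5.96 to 251 FPKM with OPA1 and from 5.03 to 236 FPKM with DMSO. The order of the genes within a role is similar but not the same in both libraries. Among the ATPases PSMC2 lies above PSMC1 and PSMC5 with DMSO and below both with OPA1. That holds for the summed transcripts shown. With transcripts weighted by length PSMC2 is above both in each library.

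With summed transcripts the ATPase ring of the 19S cap had the widest differences of the role groups with more than 2 genes. Past 0.32 in size were 3 of its 6 genes, against 24% of all kept genes, and its median log2 ratio was -0.01. With transcripts weighted by length only PSMC4 and PSMC5 passed. So few genes from 1 library per treatment do not set the group apart. PSMC2 stood at 43.4 FPKM with OPA1 and 64.0 FPKM with DMSO, the lowest log2 ratio among the members at -0.55. Its log2 ratio was -0.10 with transcripts weighted by length and 0.57 for its most abundant transcript alone, PSMC2-201. With DMSO PSMC2-206 was more abundant than PSMC2-201. PSMC4 stood at 10.3 FPKM with OPA1 and 7.54 FPKM with DMSO (log2 ratio 0.40, and -0.07 for its most abundant transcript alone), and PSMC5 at 45.4 FPKM with OPA1 and 35.5 FPKM with DMSO (log2 ratio 0.35). The other 3 ATPases were level. PSMC1 stood at 47.5 FPKM with OPA1 and 48.0 FPKM with DMSO, PSMC3 at 106 FPKM with OPA1 and 107 FPKM with DMSO, and PSMC6 at 37.4 FPKM with OPA1 and 39.4 FPKM with DMSO. PSMC4 was the least abundant ATPase in both libraries, and PSMC3 stood 10.3 times higher with OPA1 and 14.2 times higher with DMSO, although the ring holds these subunits in equal number. PSMC1 has 13 pseudogenes named for it in GENCODE, so the division of its reads is uncertain.

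The non-ATPase subunits of the base differed by little and in 1 direction. PSMD1, a scaffold that holds ubiquitin receptors, stood at 63.0 FPKM with OPA1 and 66.7 FPKM with DMSO. PSMD2, the other scaffold, stood at 37.7 FPKM with OPA1 and 39.8 FPKM with DMSO. PSMD4, a ubiquitin receptor and the most abundant cap gene, stood at 152 FPKM with OPA1 and 159 FPKM with DMSO. All 3 had log2 ratios between -0.08 and -0.07, while the most abundant transcript of PSMD4 taken alone had 0.58.

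The lid, which removes the ubiquitin chain, held 8 genes with a median log2 ratio of 0.04, 5 of them above 0. PSMD13, a scaffold of the lid, was the only lid gene past 0.32 in size, at 20.7 FPKM with OPA1 and 29.5 FPKM with DMSO (log2 ratio -0.495). PSMD14, the deubiquitinase itself, stood at 64.1 FPKM with OPA1 and 72.6 FPKM with DMSO. PSMD7, its structural partner, stood at 66.2 FPKM with OPA1 and 63.3 FPKM with DMSO. The other lid genes (PSMD3, PSMD6, PSMD8, PSMD11 and PSMD12), which mostly form its scaffold, had log2 ratios from -0.11 to 0.11. Over all 11 non-ATPase genes the median was -0.07.

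With summed transcripts 5 of 7 assembly factors were slightly higher with OPA1, where 49.9% of all kept genes were higher. Their median log2 ratio was 0.13, and none passed 0.32. Of the 5 only PSMD9, at 0.21, lay outside the middle 50% of all kept genes (-0.15 to 0.16). So few genes do not set the group apart. PSMG1 passed it with transcripts weighted by length (-0.47) and by its most abundant transcript alone, PSMG1-201 (-0.94). With OPA1 PSMG1-202 was more abundant than PSMG1-201. Of the chaperones of the base, PSMD9 stood at 5.96 FPKM with OPA1 and 5.03 FPKM with DMSO, PSMD10 at 25.5 FPKM with OPA1 and 23.2 FPKM with DMSO, and PSMD5 at 7.91 FPKM with OPA1 and 7.25 FPKM with DMSO. These bind single ATPases before the ring closes. Of the chaperones of the core, PSMG1 and PSMG2 act as a pair on the alpha ring, and the pair went apart: PSMG1 stood at 24.7 FPKM with OPA1 and 26.8 FPKM with DMSO, and PSMG2 at 41.3 FPKM with OPA1 and 37.6 FPKM with DMSO. PSMG3 and PSMG4 form the other pair. PSMG3 stood at 22.4 FPKM with OPA1 and 23.3 FPKM with DMSO, and PSMG4 at 8.64 FPKM with OPA1 and 7.69 FPKM with DMSO.

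Levels within the complex were unequal in both libraries and in nearly the same way. Across the 45 members, which share both libraries and are not replicates, Pearson's r of log2(FPKM + 1) between the libraries was 0.99, beside 0.97 over all kept genes. The most abundant alpha gene stood 8.18 times above the least abundant with OPA1 and 7.12 times with DMSO. For the constitutive beta genes the factor was 9.77 with OPA1 and 10.8 with DMSO. The median level was 87.3 FPKM with OPA1 and 87.6 FPKM with DMSO over the 14 constitutive core genes, 45.4 FPKM with OPA1 and 48.0 FPKM with DMSO over the 17 cap genes, and 22.4 FPKM with OPA1 and 23.2 FPKM with DMSO over the 7 assembly factors.

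The table resolves each gene into transcripts, and several members kept their sum while the values of their transcripts exchanged. Transcript FPKM are estimates that divide the reads shared by overlapping transcripts. Whether an exchange lies in the transcripts or in that division was not tested. Exchange is here the percentage of a gene's FPKM that would have to move between its transcripts to turn the shares of one library into those of the other. Of 38 members with 2 or more listed transcripts 13 exceeded 10%, or 34.2%, against 58.3% of the 7204 kept genes with 2 or more. Their median was 5.15%, against 13.8% over those genes. Of the 13 members 4 passed 0.32 in size (PSMA6, PSMC2, PSMC4 and PSMD13), and of the other 32 members 3 did (PSMB10, PSMC5 and PSME4). These shares are 30.8% and 9.38%, against 24% of all kept genes. The same split was not made over all kept genes, so the contrast is not particular to the members.

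PSMC2 had the largest exchange, 49.4%. PSMC2-206, a transcript of 1357 bases, stood at 1.49 FPKM with OPA1 and 28.4 FPKM with DMSO. PSMC2-201, of 2637 bases, stood at 30.5 FPKM with OPA1 and 20.2 FPKM with DMSO, so the gene's 2 leading transcripts went in opposite directions. PSMC2-203 stood at 11.4 FPKM with OPA1 and 10.1 FPKM with DMSO, and PSMC2-202 was listed at 0 with OPA1 and at 5.44 FPKM with DMSO. PSMC2-201 and PSMC2-203 carry the same coding length of 1299 bases in GENCODE, and PSMC2-206 carries 1200 bases.

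PSMA6 was higher through PSMA6-204, at 79.7 FPKM with OPA1 and 22.2 FPKM with DMSO, while PSMA6-201 stood at 63.9 FPKM with OPA1 and 82.8 FPKM with DMSO. The 2 differ by little in coding length, 756 and 738 bases. PSMA6 also has 4 pseudogenes named for it. PSMB6 was lower through PSMB6-205, at 0.37 FPKM with OPA1 and 11.5 FPKM with DMSO, while PSMB6-201, which holds most of the gene, stood at 34.3 FPKM with OPA1 and 31.4 FPKM with DMSO. PSMD4 kept its sum although PSMD4-202 stood at 125 FPKM with OPA1 and 83.5 FPKM with DMSO and PSMD4-201 at 23.7 FPKM with OPA1 and 73.2 FPKM with DMSO. These 2 differ by 9 coding bases (1131 and 1140).

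PSMG1 and PSMF1 likewise had exchanges under small differences of their sums. PSMG1-202 stood at 15.7 FPKM with OPA1 and 8.61 FPKM with DMSO, and PSMG1-201 at 9.002 FPKM with OPA1 and 18.2 FPKM with DMSO. PSMF1-203 stood at 4.62 FPKM with OPA1 and 1.66 FPKM with DMSO, and PSMF1-201 at 5.16 FPKM with OPA1 and 8.83 FPKM with DMSO. For PSMC4, PSMC4-201 stood at 4.32 FPKM with OPA1 and 1.24 FPKM with DMSO, while PSMC4-202 was level at 5.97 FPKM with OPA1 and 6.29 FPKM with DMSO. For PSMD13, PSMD13-208 was listed at 0 with OPA1 and at 3.28 FPKM with DMSO, and PSMD13-212, its main transcript, was also lower, at 15.1 FPKM with OPA1 and 19.2 FPKM with DMSO. For PSMA5, PSMA5-206 stood at 1.64 FPKM with OPA1 and 8.995 FPKM with DMSO, and PSMA5-201 at 23.04 FPKM with OPA1 and 19.7 FPKM with DMSO. The remaining 4 members past 10% (PSMA1, PSMA3, PSMB5 and PSME3) exchanged between 10.04 and 14.9%.

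**Figure D3:**
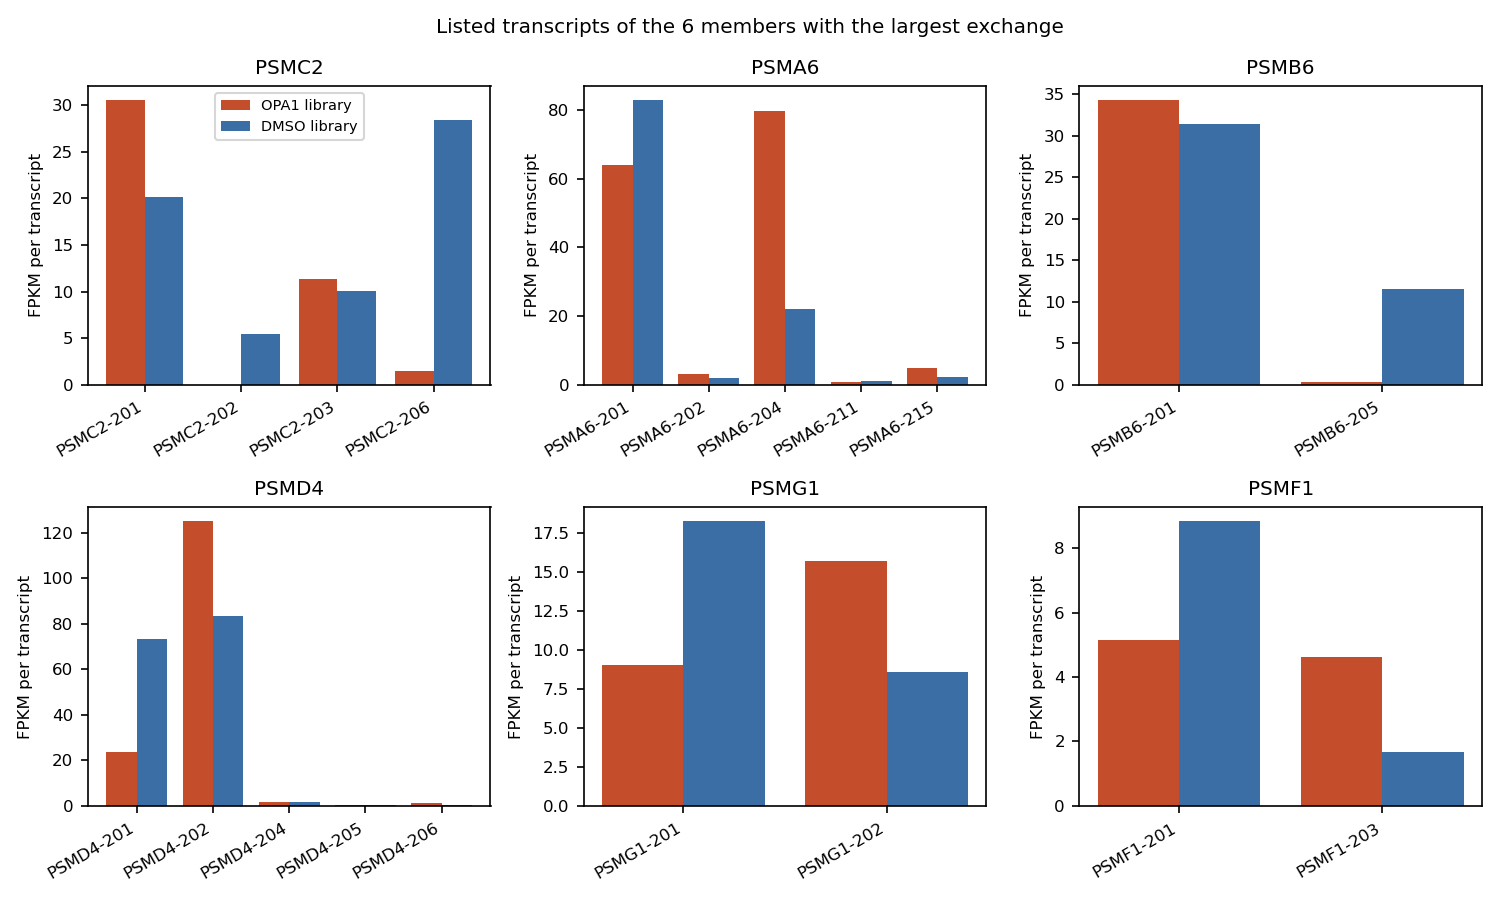
Estimated FPKM of each listed transcript (bars from 0) in the OPA1 library (left bar) and the DMSO library (right bar) for the 6 proteasome genes with the largest exchange. In PSMC2, PSMA6, PSMD4, PSMG1 and PSMF1 the 2 leading transcripts go in opposite directions, and in PSMB6 the minor transcript is at 0.37 FPKM with OPA1 and 11.5 FPKM with DMSO.

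FPKM is a value per length, so moving the same reads from a short to a long transcript lowers a gene's sum. Each transcript was therefore also weighted by its length in GENCODE, which follows the amount of sequence rather than the number of molecules. With this weighting the log2 ratio of PSMC2 was -0.10 in place of -0.55. PSMG1 went the other way, with -0.47 in place of -0.11, and PSMF1 had 0.25 in place of -0.09. PSMG1 thus took the place of PSMC2 among the 3 members lower by 0.32. The 4 members higher by 0.32 kept that side, with PSMA6 at 0.39, PSMB10 at 0.44, PSMC4 at 0.46 and PSMC5 at 0.37, and so did PSMD13 at -0.44 and PSME4 at -0.44. The median over the 45 members was 0.02.

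**Figure D4:**
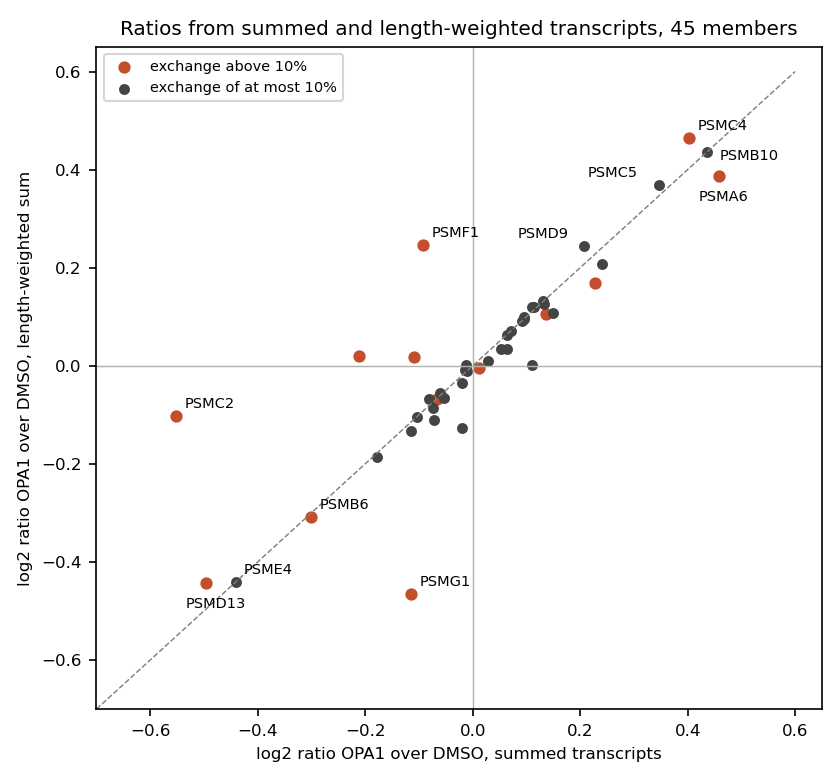
Log2 ratio of OPA1 over DMSO from summed transcripts (horizontal axis) and from transcripts weighted by length (vertical axis) for the 45 proteasome genes; the dashed line marks equal values. Members with an exchange of at most 10% lie near the line, while PSMC2, PSMF1 and PSMG1 lie far from it.

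Genes that work with the proteasome were mostly level too. Of 10 measured cofactors and subunits outside the naming rule, 5 were higher and 5 lower with OPA1, with a median log2 ratio of -0.01. POMP, which matures the core, stood at 112 FPKM with OPA1 and 108 FPKM with DMSO. ADRM1, a ubiquitin receptor of the cap, stood at 48.1 FPKM with OPA1 and 47.2 FPKM with DMSO, and SEM1, a small lid subunit, at 89.7 FPKM with OPA1 and 87.2 FPKM with DMSO. Past 0.32 was TXNL1, a thioredoxin-like protein bound to the cap, at 15.7 FPKM with OPA1 and 11.3 FPKM with DMSO. That is 10% of this list, against 24% of all kept genes. The 6 genes of ubiquitin and its activating enzymes had log2 ratios from -0.13 to 0.16; of them UBB stood at 189 FPKM with OPA1 and 191 FPKM with DMSO.

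Of the 14 genes that carry or extract ubiquitin-tagged substrates 1 was higher and 1 lower past 0.32. Together these are 14.3%, against 24% of all kept genes. NSFL1C, an adaptor of the extracting ATPase VCP, stood at 2.66 FPKM with OPA1 and 7.69 FPKM with DMSO. ZFAND2B stood at 7.57 FPKM with OPA1 and 5.17 FPKM with DMSO, through ZFAND2B-206, listed at 4.96 FPKM with OPA1 and at 0 with DMSO, and with transcripts weighted by length its log2 ratio was 0.12. VCP itself was level at 34.2 FPKM with OPA1 and 32.2 FPKM with DMSO.

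Among 8 measured genes of the NFE2L1 route, through which cells are known to raise proteasome transcription when the proteasome is short, 4 were higher and 4 lower. NFE2L1 stood at 25.9 FPKM with OPA1 and 24.1 FPKM with DMSO, and DDI2, the protease that releases it, at 5.32 FPKM with OPA1 and 6.12 FPKM with DMSO. Past 0.32 in size were 2 of the 8, or 25%, against 24% of all kept genes. Both were also past 2-fold, as were 3.96% of all kept genes. NGLY1, which removes sugars from NFE2L1, stood at 19.2 FPKM with OPA1 and 8.07 FPKM with DMSO. That difference lay on NGLY1-205, at 14.7 FPKM with OPA1 and 0.031 FPKM with DMSO, while NGLY1-204 stood at 1.51 FPKM with OPA1 and 4.99 FPKM with DMSO. NFE2L2, a relative of NFE2L1 that is also known to bind proteasome promoters, stood at 38.5 FPKM with OPA1 and 10.8 FPKM with DMSO. Of the members whose chosen window held the TGACNNNGC letters, PSMC4 was higher past 0.32 and PSME4 lower, and the other 10 lay between. Among all kept genes 24% passed 0.32 in size. PSMC5, also higher past 0.32, held the letters only in a window that was not taken, as did PSMG2, which lay between.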

How the data were processed

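Both cultures of THP-1 cells were profiled by RNA sequencing of Trizol-extracted total RNA with standard Illumina libraries, per the labels' protocols, with strand and RNA selection not given in the sources used here. One deposited table gives the authors' FPKM per protein-coding transcript, 29373 in all, per the file headers. HISAT, StringTie, edgeR and the build hg19 are named in the submitters' processing notes without versions or roles. Every listed transcript reached 0.5 FPKM in a library, so weaker ones are not analysed here; 2 lines of the table were empty. The number of reads is unknown: among the 300 lowest genes with 1 transcript, at most 18.3% of values per library fell within 0.05 of a whole step, where 10% would by even spread, so no counts were recovered and no count test was run.

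Transcripts were summed per symbol, genes kept at a mean of 1 FPKM, and log2 ratios of OPA1 over DMSO taken with a pseudocount of 1 FPKM, which makes differences of low genes smaller. Genes past 0.32 (25% higher or 20% lower) and past 2-fold on that scale were counted with no test. Lengths and coding lengths came from GENCODE release 29 by transcript ID (29240 transcripts matched). Of 45 members 39 had a RefSeq promoter window, and the choice among several windows was made after the matches were seen. Every member was named, and of the companion lists the genes past 0.32 or among the 4 largest ratios, with some others chosen after their values were seen. A companion gene is not reported here and was taken out of its list. Members and lists were chosen with earlier results of these data known. The calculation was tested on simulated data without noise, with equal transcript shares and at the 2-fold limit. That checks the arithmetic only, and not the limit of 0.32, low levels or length weighting. Pseudogenes are named for 10 members and antisense genes for 4, with which reads may be shared. Software was pandas 2.3.3 and numpy 2.4.6 in Python 3.11.15, with matplotlib 3.10.9 for figures.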

Additional observations from a re-analysis of the deposited data

How the results depend on the processing

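Medians over all members, over role groups and over inducible and constitutive genes, and the 2 counts past 0.32, were recomputed with a minimum mean of 5 FPKM, no minimum, a pseudocount of 0.1 FPKM, centring on the median gene or a trimmed mean, library sums set to 1000000, the most abundant transcript, length weighting, genes with steady transcript shares, and a mean for the median. Of 148 such values 136 stayed within 0.05 (log2) or 1.5 times. A mean in place of the median gave 0.0852 for alpha, -0.0569 for lid, 0.0804 for assembly and 0.185 for inducible genes. The most abundant transcript gave -0.0860 for alpha and -0.0393 for lid genes, with 5 members lower past 0.32, and turned the direction of 14 of 45 members, 3 of them past 0.32 as sums: PSMA6 (-0.37), PSMC2 (0.57) and PSMC4 (-0.0665). Length weighting turned 5 members, none of them past 0.32. Length weighting gave 0.0945 for activators and inhibitor. Among the 32 members with steady shares, activators had 0.0961 and non-ATPase genes 0.0291, with 2 members higher and 1 lower, fewer since fewer genes remain. Splitting the non-ATPase genes gave -0.07 for the base and 0.04 for the lid. No paired analysis was possible because each treatment has 1 library. Neither the number of reads nor the spread between cultures is known, so no error can be put on any ratio.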
